A study of Mus musculus with 13 samples.

Results

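The transcripts of 10 enzymes and partners of histone H3 lysine 4 (H3K4) and lysine 36 (H3K36) methylation were followed through meiotic maturation of single mouse oocytes. They were the H3K4 methyltransferases Kmt2a, Kmt2b, Kmt2c, Kmt2d, Setd1a and Setd1b, the CpG-binding partner Cxxc1, the H3K36 methyltransferase Setd2, and the H3K4 demethylases Kdm5b and Kdm1b. They were chosen by gene symbol, with earlier results of these data known. All 10 had a row among the 18939 genes of the count tables. Single oocytes gave 13 libraries: 3 of GV oocytes with a surrounded nucleolus (SN), 3 of GV oocytes with a non-surrounded nucleolus (NSN), 4 of MII oocytes matured from SN oocytes (SN-MII) and 3 matured from NSN oocytes (NSN-MII). All oocytes came from C57BL/6 females of 3 to 4 weeks, taken 48 h after PMSG, a hormone that promotes follicle growth. Every oocyte, in each of the 4 groups, carried injected FBL-GFP mRNA, which marks the nucleolus, and was classified after 6 h in Cilostamide, an inhibitor that blocks exit from the GV (germinal vesicle) stage. No uninjected group was analysed here, and the MII (metaphase II) groups hold only oocytes that completed maturation in culture. Nothing in the labels says which oocytes shared a female, so p-values measure the spread between these single oocytes.

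Methylation of H3K4 is laid down by large complexes of the COMPASS type, built on a KMT2 or SETD1 catalytic subunit and a shared core. KMT2A and KMT2B work with menin, KMT2C and KMT2D place H3K4me1 at enhancers, and SETD1A and SETD1B are brought to CpG islands by CXXC1. In growing mouse oocytes KMT2B and CXXC1 are needed for H3K4me3, and KMT2B also for the shutdown of transcription that goes with the change from NSN to SN chromatin. SETD2 places H3K36me3 over transcribed genes, a mark that guides DNA methylation in oocytes, and KDM1B removes H3K4 methylation at imprinted regions so that they can be methylated. KDM5B removes H3K4me3. The study reports active RNA synthesis in NSN GV oocytes and almost none in SN GV oocytes. Many stored transcripts are polyadenylated or lose their tails during maturation.

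The libraries held from 7140416 to 8846287 counts each, and none of the 78 pairs had identical values. The 12 oocyte markers were all detected, and their summed level was between 18200 and 32000 CPM (counts scaled to a common library size, on the TMM scale of edgeR), lowest in NSN-MII oocytes (18200 to 19300). Of the 12 cumulus and granulosa cell markers, Foxl2 and Ptx3 had no count in any library. The other markers of this list had counts in some libraries, and Kitl (13 to 113 counts) and Nr5a2 (54 to 176 counts) in every library. Carry-over of such cells was not tested. The summed level of the 12 markers was 61.4 to 92.5 CPM in SN GV, 65.9 to 74.1 in NSN GV, 101 to 130 in SN-MII and 99.1 to 187 in NSN-MII oocytes. Cyp19a1 alone made up 37.9 CPM or more of the sum in every library. Of the 5 blood and immune markers 3 were in the tables, with a sum of at most 4.73 CPM. The second NSN GV library had the lowest level of its stage for 7 of 9 enzymes (Kmt2a not counted), and the third NSN-MII library held 41 counts of Cxxc1 against 172 to 234 in the other MII libraries.

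The enzymes' 3′ ends are shown because the cDNA was primed on poly(A) tails. The last 100 bases of the principal GENCODE transcript of each gene (GRCm38, the build of the files, mm10) were searched on the transcript's strand only for the letters of the cytoplasmic polyadenylation element, TTTTAT or TTTTAAT, and for the poly(A) signal, AATAAA or ATTAAA. The element's letters stood in 6 of the 10 (Kmt2a, Kmt2b, Setd1a, Setd1b, Cxxc1 and Setd2) and not in Kmt2c, Kmt2d, Kdm5b or Kdm1b. Among 11232 tested genes with a coding transcript, 2186 (19.5%) held them and 80.7% held a signal. Of the enzymes, Kmt2c, Setd1b, Kdm5b and Kdm1b held no signal in these 100 bases. The sites below are 30 bases of the 3′ UTR in the last exon, read 5′ to 3′, with the element or the signal in capitals (in Setd2 a further AATAAA is left in lower case, and in Kmt2b the signal lies further downstream). Kmt2b, Setd1a and Setd2 are shown as genes with the element that were higher at MII, Setd1b as a gene with the element that was not called, and Kmt2d as a gene that was higher at MII with the signal alone.
Kmt2b, chr7:30568905-30568934, minus strand: ttctatgcacttTTTTATttaagagggcgg
Setd1a, chr7:127800083-127800112, plus strand: cacatTTTTATaattgtgATTAAActttat
Setd2, chr9:110618576-110618605, plus strand: tTTTTATgtaaaaaataaaatcaATTAAAg
Setd1b, chr5:123168579-123168608, plus strand: tattatagtaacTTTTATaaagcaaaccat
Kmt2d, chr15:98831678-98831707, minus strand: ttttaaacgataAATAAAaaaagaacattt

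The letters describe the annotated end, and the ends used in these oocytes were not analysed here. Over all genes, the element's letters stood in 29.4% of 3579 genes higher at MII, in 10.6% of 4138 lower genes and in 19.7% of 3515 genes not called, which is a description without a test. Among the enzymes the letters were found both in transcripts that were higher at MII and in those that were not called.

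From GV to MII 6 of the 9 enzymes tested rose (Kmt2b, Kmt2c, Kmt2d, Setd1a, Setd2 and Kdm1b), none was called lower, and Kmt2a had too few counts to be tested. The test was edgeR's quasi-likelihood test over all 11375 genes tested, with Benjamini-Hochberg adjustment and a threshold of 0.05. It called 68.6% of all genes, 31.7% higher and 36.9% lower, so that a change between stages was common and a rise was not the more frequent direction. For 4 of the 9 enzymes the libraries of the stages did not overlap in CPM, close to the 47.4% of all genes without overlap. The median log2 fold change was 1.15 over the 9 enzymes and -0.10 over all genes tested. The enzymes were chosen with earlier results of these data known, so these counts are a description. The values are shares of a library, and more transcript per oocyte cannot be told apart from a longer poly(A) tail or a larger share of a smaller pool of RNA.

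**Figure D1:**
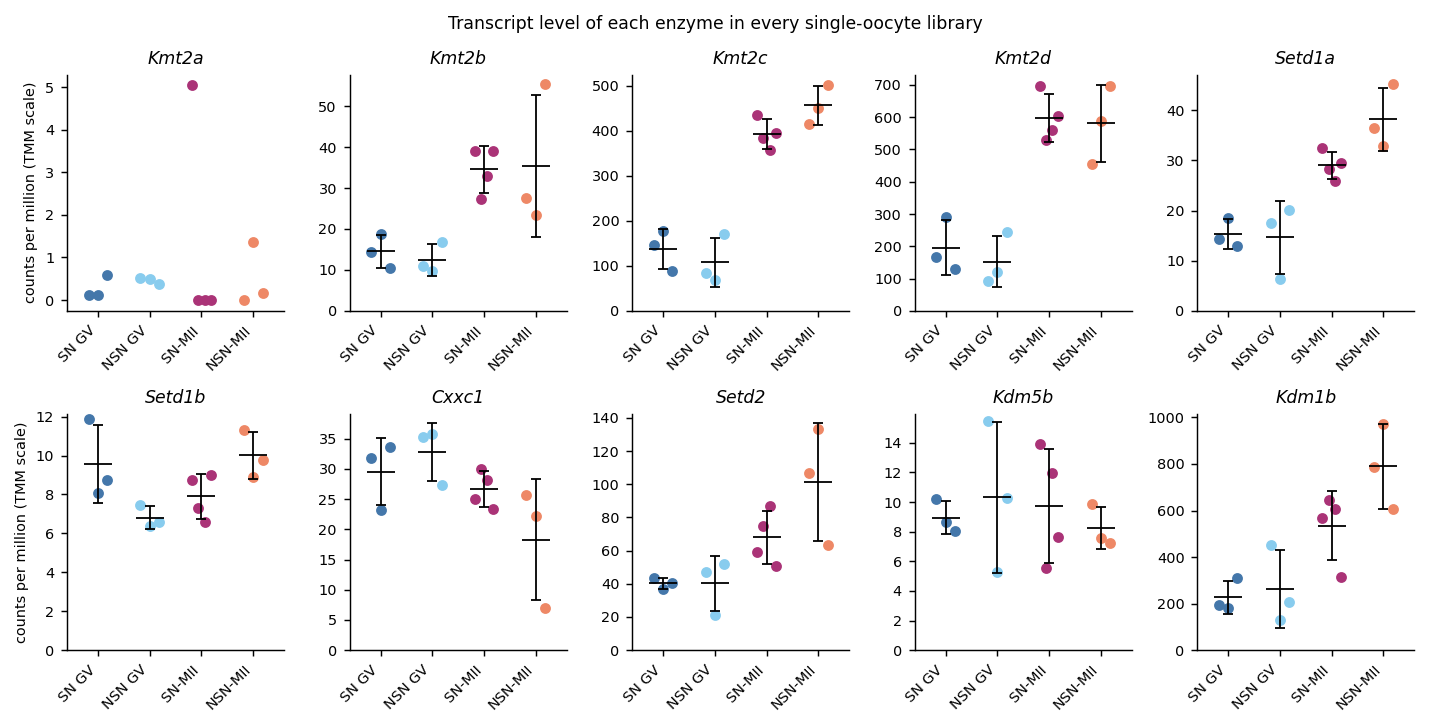
Level of each of the 10 enzymes in CPM (TMM scale, linear axes of different range), with 1 point per single-oocyte library in the 4 groups. Black lines are the mean and bars 1 SD, left out for Kmt2a, which reached 5.04 in 1 SN-MII library and at most 1.36 elsewhere. The MII points of Kmt2b, Kmt2c, Kmt2d and Setd1a all lie above the GV points.

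Kmt2c and Kmt2d, the catalytic subunits of the enhancer complexes, had the largest rises. Kmt2c (chromosome 5, 25271798 to 25498783, minus strand, 59 exons) was at 146.5, 176.8 and 88.2 CPM in SN GV and at 84.2, 68.7 and 170.9 CPM in NSN GV oocytes. It was at 436, 384, 358 and 395 CPM in SN-MII and at 416.5, 451 and 503 CPM in NSN-MII oocytes. Every MII library was above every GV library. The log2 fold change was 1.80 (SE 0.21, adjusted p = 1.25e-06 by edgeR), a 3.48-fold difference.

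Kmt2d (chromosome 15, 98831669 to 98871204, minus strand, 55 exons) was at 166, 291 and 131 CPM in SN GV and at 92.7, 122 and 244 CPM in NSN GV oocytes. At MII it was at 697, 528, 560 and 604 CPM in oocytes from the SN group and at 456.5, 589.5 and 696 CPM in those from the NSN group. The stages did not overlap here either, and the log2 fold change was 1.77 (SE 0.23, adjusted p = 4.52e-06). Across the 13 libraries Kmt2c and Kmt2d were each other's closest enzyme, with a Pearson correlation of 0.977 between their log2(CPM + 1) values, a description over libraries that share the stage difference. The GV libraries differed among themselves in the same way for both genes, with the second SN and the third NSN oocyte high.

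Kmt2b, the menin-bound enzyme of the growing oocyte, rose from a lower level. It lies on chromosome 7, 30568858 to 30588726, minus strand, with 37 exons. SN GV oocytes had 14.3, 18.7 and 10.5 CPM and NSN GV oocytes 10.9, 9.62 and 16.8 CPM. SN-MII oocytes had 39.1, 27.2, 32.9 and 39.0 CPM and NSN-MII oocytes 27.5, 23.5 and 55.4 CPM. All MII values in CPM were above the highest GV value, and the log2 fold change was 1.38 (SE 0.25, adjusted p = 0.000107). In the deposited FPKM, a count scaled by transcript length and library size, the stages overlapped. The GV libraries were at 1.98 to 4.86 FPKM and the MII libraries at 3.97 to 10.65 FPKM.

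Kmt2a, its paralogue, was close to absent. It lies on chromosome 9, 44803355 to 44881296, on the minus strand. The 6 GV libraries held 1 to 5 counts. At MII 1 SN library held 38 counts and the other 3 none, and the NSN libraries held 0, 11 and 1 counts. Kmt2a did not pass the filter on low counts, so it entered no test, and the groups overlapped. An antisense transcript, AC061963.1, shares 378 exon bases with it, and the libraries do not mark the strand.

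Of the SETD1 enzymes, edgeR called Setd1a between stages and not Setd1b, with no test between them. Setd1a (chromosome 7, 127776670 to 127800122, plus strand, 19 exons) was at 14.3, 18.6 and 12.9 CPM in SN GV and at 17.6, 6.37 and 20.1 CPM in NSN GV oocytes. It was at 32.4, 28.2, 25.9 and 29.5 CPM in SN-MII and at 36.4, 32.9 and 45.2 CPM in NSN-MII oocytes. The stages did not overlap, and the log2 fold change was 1.15 (SE 0.24, adjusted p = 0.000446).

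The length-scaled values of Setd1a did not show the same difference. In FPKM the GV libraries ranged from 1.08 to 7.54 and the MII libraries from 3.88 to 9.86, which overlap. With limma on log2(FPKM + 1) the log2 fold change was 0.43 (adjusted p = 0.201). The predicted protein-coding gene Gm49388 shares 3523 exon bases with Setd1a on the same strand and was listed at 0 to 0.16 FPKM at GV and 0.62 to 1.94 FPKM at MII. The part of this gene in the Setd1a counts was not tested.

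Setd1b (chromosome 5, 123142193 to 123168629, plus strand) was at 11.9, 8.08 and 8.74 CPM in SN GV, 7.46, 6.37 and 6.58 CPM in NSN GV, 8.76, 7.32, 6.57 and 8.997 CPM in SN-MII and 11.3, 8.91 and 9.79 CPM in NSN-MII oocytes. The stages overlapped, and the log2 fold change was 0.14 (SE 0.24, adjusted p = 0.606).

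Cxxc1, the CpG-binding subunit that brings the SETD1 enzymes to CpG islands, was not called between stages by edgeR. It lies on chromosome 18, 74216124 to 74221496, plus strand. It was at 31.8, 23.2 and 33.6 CPM in SN GV, 35.3, 35.8 and 27.3 CPM in NSN GV, 25.1, 30.1, 28.3 and 23.4 CPM in SN-MII and 25.7, 22.3 and 6.92 CPM in NSN-MII oocytes. The third NSN-MII library lay far under the other 6 MII libraries. The log2 fold change was -0.49 (SE 0.25, adjusted p = 0.0892), and -0.32 (adjusted p = 0.129) without that library. DESeq2 gave -0.55 with an adjusted p of 0.0438, and limma on log2(FPKM + 1) also called Cxxc1 lower.

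Setd2, the H3K36me3 methyltransferase, was also called higher, with the smallest point estimate of the called enzymes. Rises of different enzymes were not tested against each other. It lies on chromosome 9, 110532597 to 110618633, plus strand, with 21 exons. It was at 43.6, 36.7 and 40.4 CPM in SN GV, 47.2, 21.4 and 52.0 CPM in NSN GV, 59.2, 75.0, 86.9 and 50.7 CPM in SN-MII and 107, 133.5 and 63.3 CPM in NSN-MII oocytes. The lowest MII library lay just under the highest GV library. The log2 fold change was 1.04 (SE 0.23, adjusted p = 0.000682).

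Of the demethylases, edgeR called Kdm1b between stages and not Kdm5b, again with no test between them. Kdm1b (chromosome 13, 47043499 to 47085279, plus strand, 21 exons) was at 193, 181 and 308 CPM in SN GV, 454, 130 and 205 CPM in NSN GV, 567, 646, 606 and 316 CPM in SN-MII and 789, 971.5 and 608.5 CPM in NSN-MII oocytes. The first NSN GV oocyte was above the fourth SN-MII oocyte, and the other libraries did not overlap between stages. The log2 fold change was 1.41 (SE 0.26, adjusted p = 0.000164). Dek, on the opposite strand, shares 505 exon bases with Kdm1b and ranged from 59.8 to 143 FPKM at GV and from 163 to 364 FPKM at MII. Its part in the Kdm1b counts was not tested.

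Kdm5b, which removes H3K4me3 (chromosome 1, 134560171 to 134635285, plus strand), stayed between 5.26 and 15.4 CPM in the GV and between 5.52 and 13.9 CPM in the MII libraries. Its log2 fold change was -0.10 (adjusted p = 0.778). Its GV spread was set by the NSN oocytes, at 15.4, 5.26 and 10.3 CPM against 10.2, 8.63 and 8.02 CPM in the SN oocytes.

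Levels of different genes were compared in FPKM, which divides by transcript length. In all 4 groups Kdm1b stood highest, at 49.0 ± 16.7 (SD, n = 3) in SN GV, 62.3 ± 47.3 (n = 3) in NSN GV, 103 ± 32.6 (n = 4) in SN-MII and 157 ± 49.5 (n = 3) in NSN-MII oocytes, without overlap with the next gene. Kmt2c was second in every group, at 14.4 ± 4.17, 12.8 ± 5.43, 35.1 ± 4.14 and 41.4 ± 0.906 FPKM in the same order. At GV Kmt2c, Cxxc1, Setd2 and Kmt2d followed each other with overlapping libraries. At MII the order Kdm1b, Kmt2c, Kmt2d, Setd2 and Cxxc1 had no overlap between neighbours in either type of oocyte.

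Cxxc1 thus held the third mean in both GV groups and the fifth in both MII groups. The position of Cxxc1 in NSN-MII oocytes, 6.67 ± 4.03 FPKM, overlapped with Kmt2b at 6.49 ± 3.63 FPKM and includes the library at 2.09 FPKM. Setd1b and Kdm5b had group means of 0.757 to 2.08 FPKM, and their libraries overlapped in all groups. Kmt2a was lowest, at a mean of 0.19 FPKM or less.

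The paralogues were also set against each other within each library. Kmt2c over Kmt2d in FPKM had a median of 1.52 in SN GV, 1.72 in NSN GV, 1.41 in SN-MII and 1.59 in NSN-MII oocytes, and the ranges of the GV groups overlapped. At MII it was 1.30 to 1.51 in oocytes from the SN group and 1.55 to 1.88 in those from the NSN group. These ranges did not overlap in FPKM, but the same ratio taken in CPM overlapped between the origins. The share of gene pairs without overlap was not computed, and the pattern was not tested. Setd1a over Setd1b ranged from 1.69 to 8.38 in NSN GV and from 3.80 to 13.7 in SN-MII oocytes, a wide range that left no order between the groups.

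**Figure D2:**
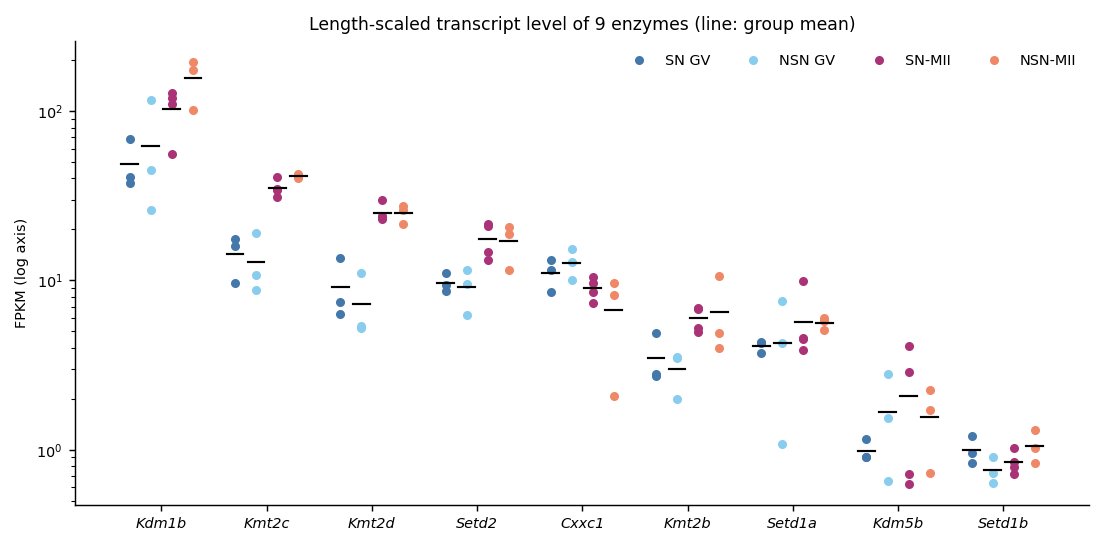
FPKM of 9 enzymes on a log axis, with 1 point per library, coloured by group, and a line at each group mean (Kmt2a, listed at 0 in several libraries, is left out). Kdm1b is highest in every group, from 49.0 to 157 FPKM, and Kdm5b and Setd1b are lowest.

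The counts and the FPKM of a gene are tied by the transcript length that RSEM uses, which depends on how it shares the reads among isoforms. This term was taken in each library as the ratio of the counts, scaled to the library's total without TMM, to FPKM. The ratios of a library were then divided by 1 factor for that library, the median over 5280 genes with at least 50 counts and 1 FPKM in each library of the gene's ratio relative to its own median over the libraries. It was steady for Cxxc1, with a coefficient of variation of 0.0952% over 13 libraries, for Kmt2d (1.59%) and for Kdm1b (2.94%). It varied by 23.1% for Kmt2b, 23.2% for Setd2, 29.8% for Setd1a and 33.0% for Kdm5b, against a median of 4.78% over those 5280 genes.

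For Setd1a the term had a median of 4.0 at GV (2.73 to 5.75) and 6.19 at MII (2.71 to 6.69). For Kdm5b it had a median of 8.31 at GV (6.47 to 9.57) and 5.88 at MII (2.71 to 9.07). The FPKM of these 4 genes therefore carried the isoform assignment of the single library. Kmt2c lay between, with 10.4% and a term of 7.65 to 11.1. Whether the isoforms themselves changed was not tested.

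**Figure D3:**
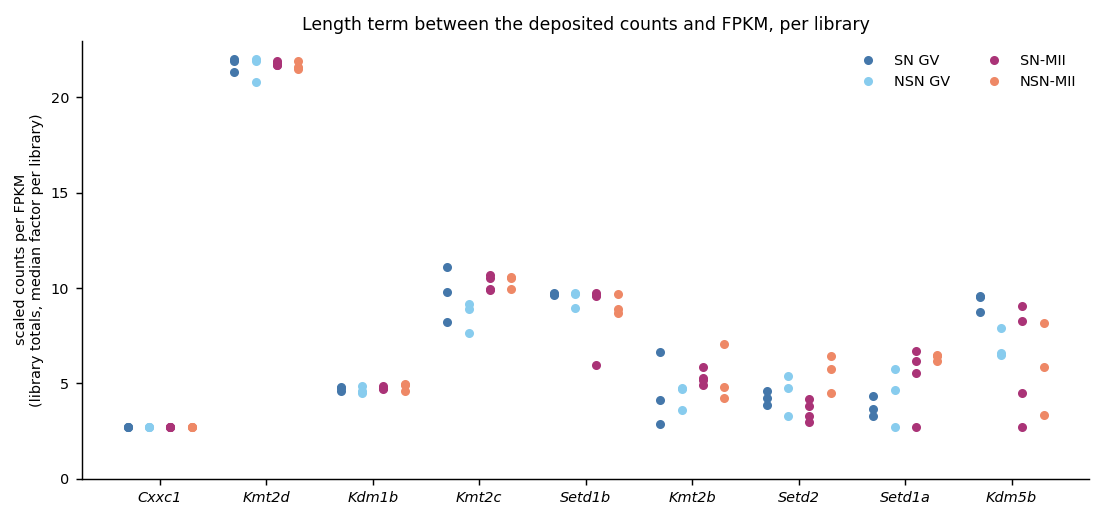
Ratio of counts scaled to the library total to FPKM, divided by a median factor for each library and proportional to the transcript length used in scaling, for 9 enzymes with 1 point per library and colours for the 4 groups. Points of Cxxc1, Kmt2d and Kdm1b lie close together within each gene, while those of Kmt2b, Setd2, Setd1a and Kdm5b spread, for example from 2.71 to 9.57 for Kdm5b.

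The stage change was also taken within each type of oocyte. From SN GV to SN-MII 6 of 9 enzymes were called higher and none lower. Of 11375 genes 2858 were called higher and 3550 lower, 56.3% in either direction. From NSN GV to NSN-MII the count was again 6 of 9 higher and none lower. There 2894 of 11375 genes were called higher and 3509 lower, 56.3% in either direction. In SN oocytes the log2 fold changes were 1.52 (adjusted p = 0.000334) for Kmt2c, 1.61 (0.00049) for Kmt2d, 1.25 (0.00502) for Kmt2b and 1.23 (0.00849) for Kdm1b. Setd1a (0.93, adjusted p = 0.0246) and Setd2 (0.76, adjusted p = 0.0496) were called with less margin. The call of Setd2 was lost without any of 8 libraries (SN GV 1, 2 and 3, NSN GV 1, SN-MII 1, 2 and 3, NSN-MII 1), with an adjusted p of 0.056 to 0.135, and that of Setd1a without SN GV 1 or 3 or SN-MII 1 (0.0536 to 0.0965). When libraries were scaled by total counts only, Setd1a, Setd2 and Kdm1b were not called in SN oocytes, and the share of higher genes among all genes called there went from 44.6% to 33.4%.

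In NSN oocytes the same 6 genes were called, with log2 fold changes of 2.08 for Kmt2c (adjusted p = 3.49e-05), 1.93 for Kmt2d (0.000163), 1.59 for Kdm1b (0.00217), 1.51 for Kmt2b (0.00197), 1.38 for Setd1a (0.00312) and 1.33 for Setd2 (0.00281). Setd1b, at 0.55 (adjusted p = 0.183), and Cxxc1, at -0.84 (adjusted p = 0.0612), had no overlap between the stages in NSN oocytes. Neither was called by edgeR, while DESeq2 and limma on log2(FPKM + 1) called Cxxc1 lower. In this comparison 8 of 9 enzymes and 61% of all genes had no overlap. The value of Cxxc1 was -0.48 (adjusted p = 0.164) without the third NSN-MII library.

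The point estimate of each of the 6 called genes was larger in NSN oocytes, and the difference itself was tested in a model with an interaction between oocyte type and stage. None of the 9 enzymes was called by edgeR, against 0.0176% of all genes (2 of 11375), and none had an unadjusted p under 0.05, while 5.33% of all genes did. DESeq2 called none either. The interaction, on the log2 scale, was 0.56 (SE 0.41) for Kmt2c, 0.58 (SE 0.45) for Setd2 and 0.82 (SE 0.47, unadjusted p = 0.098) for Setd1b, with an adjusted p of 0.9996 for all 9. A larger rise in NSN than in SN oocytes was therefore not shown for any enzyme.

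**Figure D4:**
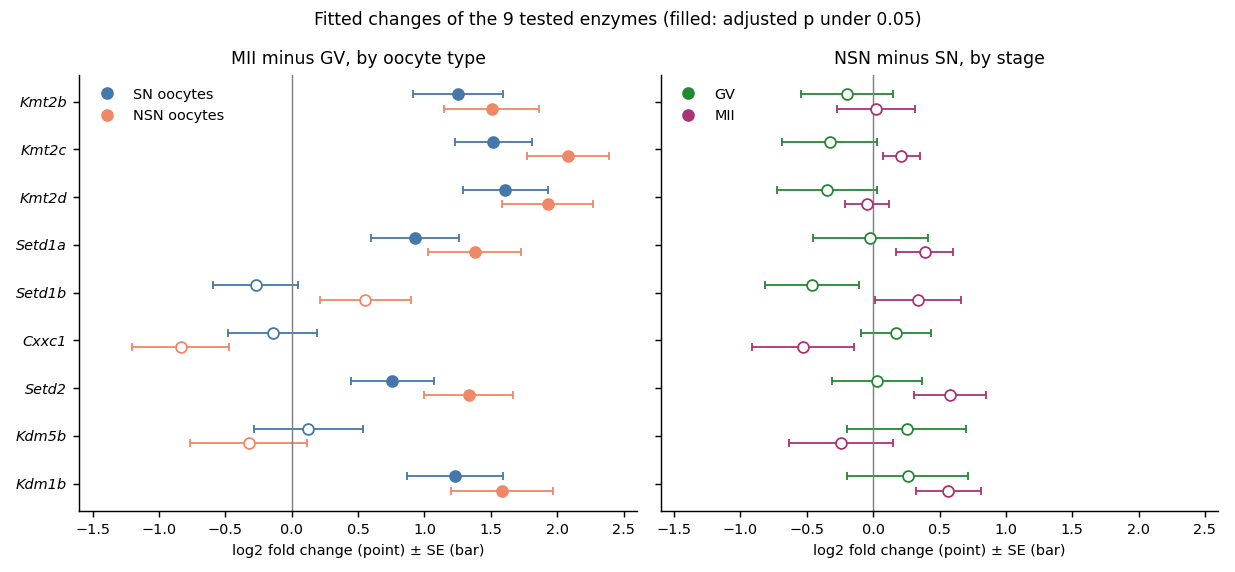
Log2 fold changes of the 9 tested enzymes with SE bars, on the left MII minus GV in SN and in NSN oocytes and on the right NSN minus SN at GV and at MII. Filled points passed an adjusted p of 0.05 in the quasi-likelihood test: 6 genes on the left in each type of oocyte, from 0.76 (Setd2, SN) to 2.08 (Kmt2c, NSN), and none on the right.

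NSN and SN oocytes were compared at the GV stage, the comparison that asks whether the nucleolar class goes with a different transcriptome. None of the 9 enzymes was called by edgeR at GV, where 0% of 10839 genes were called. None had an unadjusted p under 0.05 by edgeR, DESeq2 or, for 8 enzymes, limma on FPKM, against 1.75% of all genes by edgeR. The log2 fold changes, NSN over SN, lay between -0.46 (SE 0.35) for Setd1b and 0.26 (SE 0.46) for Kdm1b, with a median of -0.02 against 0.01 over all genes.

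For Setd1b alone the CPM of the groups did not overlap at GV, with 6.37 to 7.46 in NSN and 8.08 to 11.9 in SN oocytes. In FPKM Setd1b did overlap, at 0.64 to 0.90 in NSN and 0.83 to 1.21 in SN oocytes. The lack of overlap in CPM was found for 1 of 9 enzymes, and for 6.03% of all genes tested at GV. At 51 to 93 counts per GV library, a difference of this size was not detectable against the spread between oocytes. The standard errors of the 9 log2 fold changes were between 0.26 and 0.46, so that only large differences would have been called.

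Oocytes of the same class also differed among themselves. In NSN GV oocytes the highest over the lowest CPM was 3.50 for Kdm1b, 3.15 for Setd1a, 2.94 for Kdm5b, 2.63 for Kmt2d and 2.49 for Kmt2c. In SN GV oocytes it was 1.70 for Kdm1b, 1.44 for Setd1a, 1.27 for Kdm5b, 2.23 for Kmt2d and 2.0 for Kmt2c. The second NSN oocyte was the low one for Kdm1b, Setd1a, Kdm5b and Kmt2c. Without it the log2 fold change of Kdm1b moved from 0.26 to 0.59, and without the first NSN oocyte it turned to -0.49. No enzyme was called in either case. Whether the classes differ in spread was not tested.

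Between the MII oocytes of the 2 origins no enzyme was called by edgeR, where 0.259% of 10028 genes were (26 genes). Kdm1b, at 0.57 (SE 0.245), had an unadjusted p of 0.0401 and an adjusted p of 0.486. Setd2, at 0.58 (SE 0.27), had an unadjusted p of 0.055 and an adjusted p of 0.54. An unadjusted p under 0.05 was found for 1 of 9 enzymes, against 9.38% of all genes. DESeq2 gave 2 such enzymes, Setd2 and Kdm1b, and called neither, and limma on FPKM gave none of 8.

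Setd1a was higher in all 3 NSN-MII libraries (32.9 to 45.2 CPM) than in all 4 SN-MII libraries (25.9 to 32.4 CPM). Its log2 fold change was 0.39 (SE 0.22, adjusted p = 0.634 by edgeR). In FPKM the origins overlapped, at 5.07 to 6.00 in NSN-MII and 3.88 to 9.86 in SN-MII oocytes. In CPM the other enzymes overlapped between the origins, and 1 of 9 without overlap is close to the 10.2% of all genes tested at MII. Kmt2b differed least, by 0.02 (SE 0.30), Kmt2d was at -0.05 (SE 0.17), and Cxxc1 was at -0.53 (SE 0.38), with the low library among the NSN-MII oocytes. Kmt2c was at 0.21 (SE 0.14). Without the third NSN-MII library, Setd2 was at 0.83 (adjusted p = 0.0722 by edgeR), Kdm1b at 0.73 (adjusted p = 0.114), Cxxc1 at -0.15 and Kmt2b at -0.43, and no enzyme was called.

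The rest of the pathway was read from 6 lists of 37 genes, all in the tables and chosen with earlier results of these data known. Of 36 tested between stages, 21 rose, 8 fell and 7 were not called, with a median log2 fold change of 0.64. Of all genes tested 31.7% rose and 36.9% fell, which is the background for this count and for those of the single lists. Between NSN and SN oocytes edgeR called none of 36 at GV and none of 32 at MII, and in the interaction none of 36.

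Among the 4 core subunits shared by all COMPASS complexes, 2 rose, 1 fell and 1 was not called. Dpy30 rose by a log2 fold change of 1.11 (adjusted p = 0.000114). Ash2l, which together with Rbbp5 activates the catalytic subunit, fell by 1.27 on the log2 scale (adjusted p = 0.00169), from a mean of 22.1 CPM at GV to 9.02 CPM at MII. Taken by type, edgeR called Ash2l lower in SN oocytes (-1.55, adjusted p = 0.00507) and not in NSN oocytes (-0.99, adjusted p = 0.0747). The second NSN-MII library, at 19.8 CPM, lay within the GV range of 13.2 to 30.6 CPM.

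Of the 11 subunits particular to certain complexes, 8 rose, 2 fell and 1 was not called. The largest rise was that of Kdm6a, the H3K27 demethylase of the KMT2C and KMT2D complexes (log2 fold change 1.63, adjusted p = 6.8e-05), from a mean of 189 CPM at GV to 581 CPM at MII. Pagr1a, a small subunit of the same complexes, had the largest fall, of 4.15 on the log2 scale (adjusted p = 2.5e-05). Its counts were 16.2 to 241 at GV and 0 to 10.3 at MII. Pagr1a was the only partner of Kmt2c and Kmt2d in this list that fell. Its counts were not whole numbers in any GV library, and how far its reads were shared with other loci was not tested.

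Men1 encodes menin, the partner of KMT2A and KMT2B, and is named here after its values were seen. It was at 34.4, 41.3 and 38.3 CPM in SN GV and at 44.6, 45.3 and 41.3 CPM in NSN GV oocytes. It was at 4.11, 8.03, 6.44 and 4.29 CPM in SN-MII and at 4.76, 4.08 and 1.27 CPM in NSN-MII oocytes. The stages lay far apart, with a log2 fold change of -3.19 (SE 0.26, adjusted p = 1.95e-08), while Kmt2b changed by 1.38 in the other direction.

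Of 5 other genes of H3K4 demethylation 3 rose, 1 fell and 1 was not called. Rcor1, the scaffold of the KDM1A complex, rose most (log2 fold change 1.69, adjusted p = 4.13e-06). The gene with the largest fall was Kdm5d, at -3.59 (adjusted p = 1.15e-09), from a mean of 456 CPM at GV to 37.4 CPM at MII. Kdm5d is annotated on chromosome Y (897788 to 956786) and these oocytes came from females. Of 182 protein-coding genes annotated on chromosome Y in the FPKM table, 171 were listed at 0 in every library and 3, Kdm5d among them, reached 1 FPKM, while Ddx3y and Uty stayed at or under 0.34 FPKM. Which locus the reads of Kdm5d come from was not tested, and reads of near-identical copies cannot be told apart. Kdm5c, its X-linked paralogue, moved the other way (0.78, adjusted p = 0.019).

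Of 5 other H3K36 methyltransferase genes 2 rose, 1 fell and 2 were not called. Ash1l rose by a log2 fold change of 1.46 (adjusted p = 0.000996), and Smyd2, at 4 to 44 counts at GV in NSN and 19 to 28 in SN oocytes, fell by 2.61 on the log2 scale (adjusted p = 0.00285). Of the 6 H3K36 demethylase genes 5 were tested: 1 rose, 3 fell and 1 was not called. Kdm2a rose (1.72, adjusted p = 3.11e-06) and Kdm4b fell most (-2.94, adjusted p = 0.0033), from 3 to 90 counts at GV to 0 to 11 at MII.

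Kdm4a, a demethylase of H3K9 and H3K36, is in the supplementary lists of the study and so was chosen on these samples. Over both types it was not called between stages by edgeR (0.98, adjusted p = 0.0682). Taken by type, edgeR called Kdm4a higher in NSN oocytes (2.42, adjusted p = 0.007) and not in SN oocytes (-0.47, adjusted p = 0.531). It had 6 to 55 counts in the NSN GV libraries. Its log2 fold change, NSN over SN, was -1.71 (adjusted p = 1) at GV and 1.16 (adjusted p = 0.366) at MII, where the origins did not overlap. The interaction was 2.89 (SE 0.91, unadjusted p = 0.00574, adjusted p = 0.645).

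Of the 6 readers of H3K36 methylation 5 rose, none fell and Brpf1 was not called. Phf19 rose most (log2 fold change 1.57, adjusted p = 0.00011), and Dnmt3a, the DNA methyltransferase that reads H3K36 methylation, rose by 0.61.

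**Figure D5:**
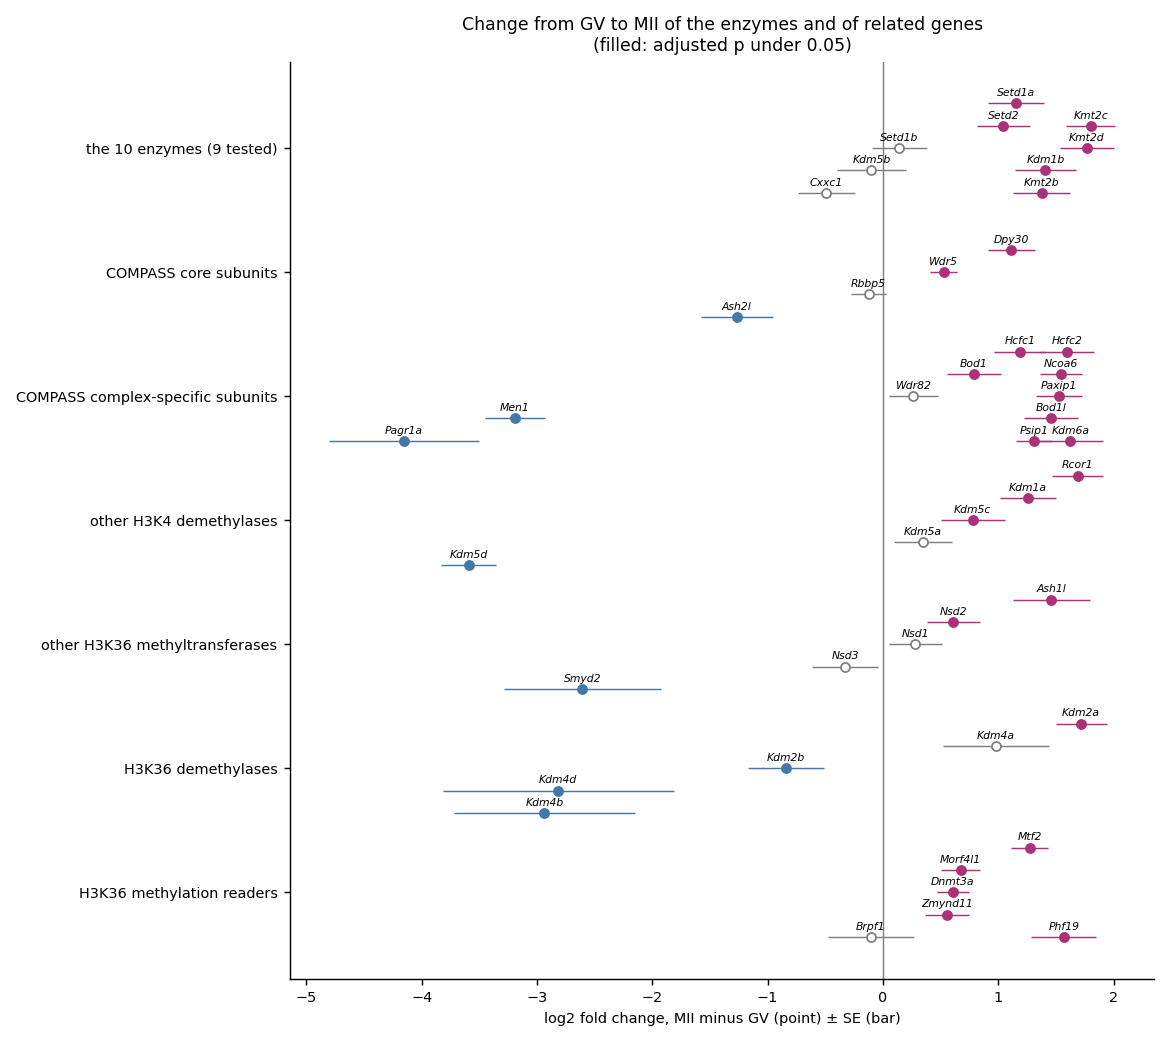
Log2 fold change from GV to MII with SE bars for the 9 tested enzymes and 36 related genes, 1 row of points per list (the height within a row only separates labels). Filled points passed an adjusted p of 0.05, red for higher and blue for lower. Kmt2c, at 1.80, is the highest of the enzymes, while Men1, at -3.19, and Pagr1a, at -4.15, are far to the left among their complexes' subunits.

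By the same measure of likeness, the genes closest to Kmt2c over the 13 libraries among all genes tested were Tbl1xr1 (r = 0.994), Tet3 (0.994) and Map3k5 (0.993). Setd2 and Kdm1b were each other's closest enzyme (0.901), Setd1a was closest to Kmt2c (0.924) and Kmt2b to Kmt2d (0.946). Setd1b (0.373 with Setd1a), Kdm5b (0.185 with Setd1a) and Cxxc1 (0.165 with Kdm5b), none called between stages by edgeR, were close to no other enzyme. These points share their libraries and the stage difference, and no test was made.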

How the data were processed

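RNA of 13 single oocytes was amplified with the SMART-seq2 protocol, tagmented with Tn5 and sequenced on Illumina HiSeq X-10. Per the labels and the methods, the authors trimmed reads with Trim Galore 0.4.4, mapped them to mm10 with Bowtie2 2.3.5 and quantified genes with RSEM 1.2.28 (DESeq2 1.20.0 is also named). The expected counts were deposited by the authors in 1 table per stage, with 9.27 to 14.0% of a library's values not whole. A single table of FPKM values for all libraries was also deposited. No molecular identifiers or strand marking are stated, so overlapping genes cannot be separated, and PCR adds error to that of counting.

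Here counts were rounded to whole numbers, filtered with filterByExpr, scaled by TMM and tested with edgeR 4.0.16 (R 4.3.3) over all genes, with calls at an adjusted p under 0.05. NSN and SN oocytes were compared within a stage. MII and GV oocytes were compared over all libraries, in each type, and by an interaction. DESeq2 1.42.0, limma 3.58.1 on log2(FPKM + 1) and other filters, scalings and subsets were alternatives. The common biological coefficient of variation was 0.352 at GV and 0.344 at MII. The script was tested on simulated data. Figures used matplotlib. Motifs and coordinates are from GENCODE M21 (GRCm38).

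Named genes were the 10 enzymes, the called genes of each related list with the largest rise and fall between stages, and Kdm4a. Men1, Kdm5c and Dnmt3a, and Ddx3y and Uty as Y-linked genes, were named after their values were seen. The members and lists were chosen with earlier results of these data known. Raw reads were not analysed here.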

Additional observations from a re-analysis of the deposited data

Results flagged for a closer look

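Kmt2a in SN-MII oocytes was marked because a sample stood far from the others of its group. The first SN-MII library was at 5.04 CPM and the other 3 were at 0 CPM. Of 10 genes examined for such a sample in the group of 4 libraries, this was the only 1. With 3 libraries at 0, any value above 0 in the remaining library is marked. The rate of about 1 group in 20 marked by chance therefore does not apply to Kmt2a. The value rests on 38 counts.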

How the results depend on the processing

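Over 420 refits of called enzymes in the stage comparisons, 387 kept their call, 33 lost it and 0 changed direction. Kmt2c and Kmt2d were called under every alternative in all 3 stage comparisons. In SN oocytes the number of enzymes called fell from 6 to 3 with total counts only, to 3 with limma on log2(FPKM + 0.1) and to 3 with limma on log2(FPKM + 1) without the FPKM filter. Setd2 was called there under 11 of 23 alternatives, Setd1a under 15, and Kmt2b and Kdm1b under 20. Setd1a over both types was called under 21 of 24, and was lost with each of 3 fits on FPKM. Cxxc1 was called lower under 5 of 24 alternatives, and under 7 of 23 in NSN oocytes. The replicate numbers did not pair the samples (correlation of deviations -0.459 to 0.0967), and with the replicate block 4 enzymes were called in SN oocytes, with Setd1a at 0.063 and Setd2 at 0.056. No NSN against SN or interaction call was made for an enzyme under any alternative. Total counts only moved the median log2 fold change of all genes between stages from -0.10 to -0.39, and the share of higher among called genes in SN oocytes from 44.6% to 33.4%. For NSN against SN at MII, 26 genes were called by edgeR, and by DESeq2 52 higher and 165 lower, without the filter 14 and 75, in a fit of all libraries 9 and 60, with the replicate block 0 and 2, with total counts only 0 and 16, with the 3 fits on FPKM 0 and 9, 0 and 6, and 1 and 2, and when 1 library was left out 3 and 32 (SN-MII 1), 0 and 7 (SN-MII 2), 0 and 4 (SN-MII 3), 0 and 9 (SN-MII 4), 0 and 2 (NSN-MII 1), 1 and 4 (NSN-MII 2) and 106 and 127 (NSN-MII 3). The interaction called 2 genes by edgeR, by DESeq2 4 and 35, and without the filter 0 and 6. At 42 to 147 counts per library for Kdm5b and 50 to 95 for Setd1b, small differences could not be detected.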
